A study of Homo sapiens with 6 samples.

Results

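The genes described here are 46 genes of the lysosome, picked by symbol from the 65746 genes of a count table of SU-DHL-8 cells: 3 transcription factors of the MiT family, 10 proteins of the lysosomal membrane, 17 hydrolases and lumenal proteins, and 16 subunits and accessory proteins of the vacuolar proton pump (V-ATPase). Cathepsins were left aside. SU-DHL-8 is a human cell line from a diffuse large B-cell lymphoma, labelled wild type in every sample. The cells had received beta-sitosterol, a plant sterol, at 15 µM for 24 h, or the solvent DMSO for the same time. Each group had 3 libraries, which the labels number as replicates. RNA-seq counted between 26453281 and 29360142 reads on genes in the beta-sitosterol libraries, and between 31314446 and 35565620 in the DMSO libraries. The question set by the design was which transcripts differ after the sterol, and for the lysosome it was asked by class of protein.

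Lysosomes are acidic organelles that break down material delivered by endocytosis and autophagy. The V-ATPase acidifies their lumen: its cytosolic V1 sector hydrolyses ATP and turns a rotor in the membrane-bound V0 sector, which carries protons across. The enzymes inside cleave glycans, lipids, glycogen and proteins, most of them reaching the organelle through the mannose 6-phosphate receptors. TFEB, TFE3 and MITF are basic helix-loop-helix factors held in the cytoplasm by the kinase complex mTORC1 at the lysosomal surface. When released they enter the nucleus and bind promoters of lysosomal genes at an element with the E-box core CACGTG, known as the CLEAR element. In B cells, lysosomes also degrade internalised antigen and antigen receptors.

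The CLEAR element makes the promoters of these genes part of the description, so the E-box core was looked for in the RefSeq promoter windows of GRCh38.p14, which run from 250 bases before to 50 bases after each annotated start. An entry existed for 34 of the 46 genes. The hexamer CACGTG, which reads the same on both strands, was present in 10 of these 34 windows (29.4%). In the whole table it was present in 2030 of 27305 windows (7.43%), which include those of genes not tested here. Of all tested genes with an entry, 948 had it and 8138 did not. The hexamer with a T before it and an A after it, also a palindrome, was present in 7 of the 34 (20.6%), against 1.04% of all windows. The longest form searched, with GT before the hexamer and AC after it, contains both shorter forms and was present in 4 of the 34 (11.8%), against 0.381% of all windows. These matches describe letters in a window and do not show binding. The windows below are the 30 bases around a match in 9 of the 10 genes, read 5′ to 3′ on the strand of the gene with the hexamer in capitals, and they are shown because these genes run from the largest rise among the 46 genes to the only fall.
CD63: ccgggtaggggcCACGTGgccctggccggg
ATP6V0B: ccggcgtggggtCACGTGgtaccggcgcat
NEU1: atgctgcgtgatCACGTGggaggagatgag
GAA: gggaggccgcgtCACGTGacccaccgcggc
GAA: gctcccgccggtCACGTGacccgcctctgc
MCOLN1: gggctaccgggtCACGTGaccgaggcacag
ATP6V1G1: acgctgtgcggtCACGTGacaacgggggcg
GALNS: caggcaccgcgtCACGTGacccgccgctgg
LAMP1: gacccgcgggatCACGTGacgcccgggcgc
ATP6V0D1: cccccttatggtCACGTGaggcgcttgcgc

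In GRCh38.p14 the CD63 stretch is chr12:55729172-55729201 on the minus strand, and that of ATP6V0B is chr1:43974891-43974920 on the plus strand. The NEU1 stretch is chr6:31862930-31862959 on the minus strand. The pair from GAA lies on the plus strand at chr17:80101493-80101522 and chr17:80101538-80101567. MCOLN1 is shown at chr19:7522598-7522627, plus strand, and ATP6V1G1 at chr9:114587699-114587728, plus strand. GALNS is shown at chr16:88857104-88857133, minus strand, LAMP1 at chr13:113297199-113297228, plus strand, and ATP6V0D1 at chr16:67481199-67481228, minus strand. CLN3 is the remaining gene with the hexamer. The longest form stood in the stretches of GAA, MCOLN1, ATP6V1G1 and GALNS. The stretches of CD63, ATP6V0B and NEU1 had the hexamer without either longer form. LAMP1 had 6 copies of the core in its window, more than any other of the 10 genes.

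**Figure D1:**
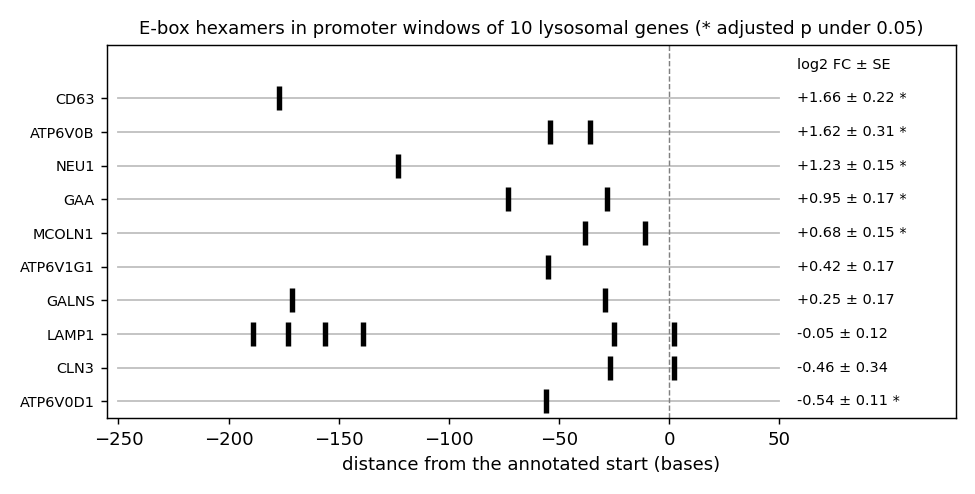
Position of each CACGTG hexamer (black ticks) in the promoter windows of the 10 lysosomal genes that have it, as distance in bases from the annotated start, with each gene's log2 fold change ± SE (beta-sitosterol over DMSO) at the right. LAMP1, with 6 copies, had a change of -0.05, while CD63, with 1 copy, had 1.66.

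The libraries were those of a B-cell line in both groups. The 8 B-cell markers examined summed to 2266 to 2429 CPM (counts scaled to a common library size) in beta-sitosterol libraries and to 1889 to 2541 CPM in DMSO libraries. These sums hold markers that moved in opposite directions, since MS4A1 and CD79A rose by 2.23 and 1.05 on the log2 scale and PAX5 and EBF1 fell by 1.67 and 2.07 (by edgeR, adjusted p = 1.11e-04, 5.35e-04, 8.07e-05 and 3.31e-04). The 10 macrophage markers summed to 6.18 to 8.44 CPM after beta-sitosterol and 4.61 to 7.13 CPM in DMSO, most of it from LYZ, and C1QA and C1QB were at 0 in all 6 libraries. The 6 T-cell markers summed to 1.12 to 1.55 CPM after beta-sitosterol and 1.76 to 1.99 CPM in DMSO, with CD3E, CD3G and CD2 at 0. The 8 stromal and epithelial markers summed to 0.795 to 2.04 CPM after beta-sitosterol and 0.147 to 0.188 CPM in DMSO, with DCN at 0. COL1A1, the 1 marker of this list that was tested, had 0.611, 0.454 and 0.909 CPM after beta-sitosterol and 0 in each DMSO library. It was called higher at these low values (log2 fold change 7.35, by edgeR, adjusted p = 0.00165). The part of such markers in the results was not tested. DMSO replicate 2 stood apart from its group: correlations of log2 CPM between libraries were 0.994 among beta-sitosterol libraries and 0.972 to 0.991 among DMSO libraries, and the listed TPM values (the deposited values, scaled for transcript length) summed to 39.5% of the total that complete TPM values would reach in DMSO replicate 2, against 64.6% and 69.2% in the other DMSO libraries and 57.0% to 57.8% after beta-sitosterol. Among the 43 lysosomal genes tested, this library had the lowest DMSO value for 22 and the highest for 14. Over all 11525 tested genes it had the lowest for 4796 and the highest for 4658. By class, it was lowest and highest for 11 and 4 hydrolases, 7 and 5 V-ATPase genes, 3 and 5 membrane proteins, and 1 and 0 MiT factors. Results that change without this library are given both ways.

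After beta-sitosterol, 19 of the 43 lysosomal genes that passed the low-count filter rose and 1 fell at an adjusted p under 0.05, by edgeR's quasi-likelihood test with Benjamini-Hochberg adjustment over all 11525 genes tested (written below as edgeR, with the adjusted p). That is 44.2% higher and 2.33% lower, where 19.0% of all tested genes were higher and 21.8% were lower. The 46 genes were chosen with earlier results of these data known. The contrasts with all tested genes therefore describe this list and are not an independent test of it. The median log2 fold change of the 43 genes was 0.38, against -0.04 over all tested genes. All 3 beta-sitosterol values lay above all 3 DMSO values for 23 of the 43 and below them for 3, while the background was 27.0% above and 29.1% below. The 46 genes together held 5689, 5688 and 5689 CPM in beta-sitosterol libraries, against 3218, 3230 and 3503 CPM in DMSO libraries. LAPTM5 alone supplied a large part of this, and the remaining 45 genes held 3901, 3896 and 3989 CPM after beta-sitosterol and 2585, 2361 and 2821 CPM in DMSO. The treated libraries were again above all DMSO libraries without it. In bulk RNA, more transcripts per cell and a larger share of cells carrying them cannot be told apart, and the p-values measure only the spread between these libraries.

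**Figure D2:**
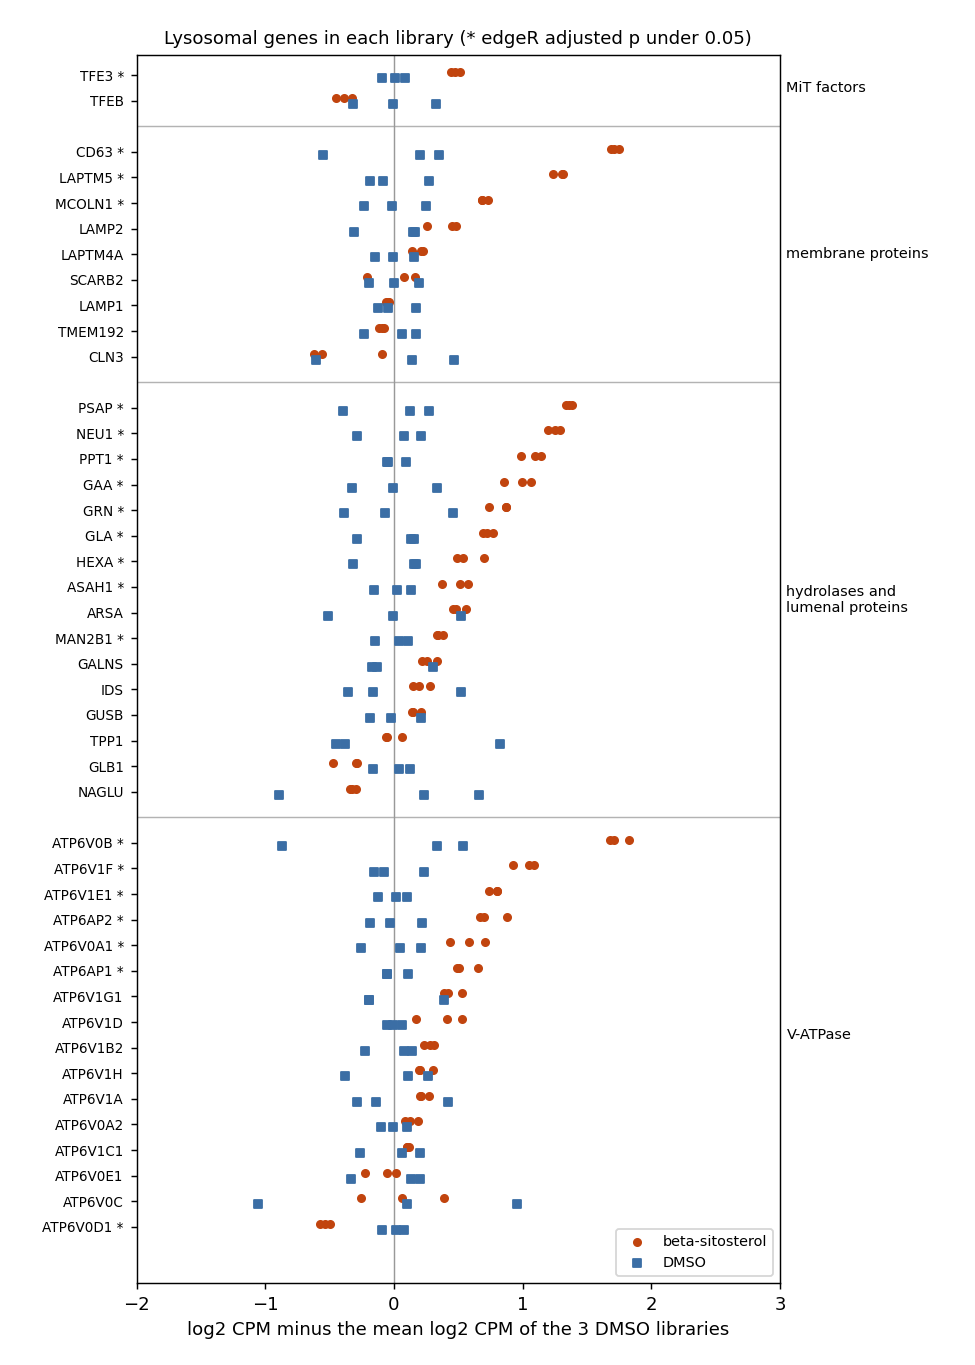
Log2 CPM of each of the 43 tested lysosomal genes in each beta-sitosterol library (circles) and each DMSO library (squares), minus the mean log2 CPM of the 3 DMSO libraries, ordered by fold change within each class. The asterisks mark the 19 higher genes and ATP6V0D1, the lower one.

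Leaving out DMSO replicate 2 gave 24 higher and 4 lower lysosomal genes, against backgrounds of 26.4% higher and 30.3% lower of all genes. The 5 genes added to the higher ones were LAMP2, IDS, TPP1, ATP6V1D and ATP6V1G1, and the 3 added to the lower ones were TFEB, GLB1 and NAGLU. Leaving out beta-sitosterol replicate 1, 2 or 3 left 14 higher lysosomal genes each time. Of all genes, 1510 of 11765, 1501 of 11786 and 1507 of 11742 were then higher. Leaving out DMSO replicate 1 gave 16 higher lysosomal genes, where 1781 of 11715 genes were higher in all. Of these 16, 15 were among the 19 and the other was ATP6V1A. On a TPM scale, log2(TPM + 1) with limma-trend, 4 lysosomal genes remained higher (LAPTM5, CD63, PPT1 and ATP6V1F) and ATP6V0D1 remained lower, with the median of all genes at -0.19 and that of the 43 genes at 0.09. On that scale 713 of all 11525 tested genes were higher and 2226 lower. This made 24.3% of all calls higher, against 46.5% with the counts.

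Of the MiT factors, TFE3 was called higher and TFEB was not called. TFE3 (chrX:49028726-49043357) had 34.4, 33.6 and 35.4 CPM after beta-sitosterol, against 23.2, 24.9 and 26.3 CPM in DMSO. The groups did not overlap, and the log2 fold change was 0.48 ± 0.12 (SE, by edgeR, adjusted p = 0.0125). Without beta-sitosterol replicate 1, 2 or 3 in turn that adjusted p was 0.0611, 0.0576 or 0.067, so the call rests on having all 3 treated libraries. TFEB (chr6:41683978-41736223), the more abundant factor, had 137.3, 126.0 and 131.3 CPM after beta-sitosterol, against 171.0, 137.9 and 214.9 CPM in DMSO. Every treated value lay below every DMSO value, with DMSO replicate 2 close to the treated libraries. Its log2 fold change of -0.41 ± 0.16 did not pass (by edgeR, adjusted p = 0.0779), and without DMSO replicate 2 it was -0.56 (by edgeR, adjusted p = 2.27e-04). MITF, the melanocyte and osteoclast member of the family, had 0, 3 and 0 counts after beta-sitosterol and 0 counts in each DMSO library, and was not tested.

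Among the membrane proteins, 3 of the 9 tested rose (33.3%) and none fell, with a median log2 fold change of 0.19. Of all tested genes, 19.0% were higher and 21.8% lower. LAPTM5 (chr1:30732469-30757774), a transmembrane protein of blood cells that promotes lysosomal degradation of antigen receptors, was the most abundant of the class per unit of length in every library. It had 1787, 1793 and 1700 CPM after beta-sitosterol, against 633.2, 869.2 and 681.7 CPM in DMSO. The treated libraries held about the same level and DMSO replicate 2 was the highest of the DMSO group, so the difference was larger than the spread, at a log2 fold change of 1.27 ± 0.14 (SE, by edgeR, adjusted p = 4.12e-04).

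CD63 (chr12:55723535-55730041), a tetraspanin of late endosomes, lysosomes and exosomes, had the largest fold change of all 43 genes. Its level was 365.7, 370.7 and 380.4 CPM after beta-sitosterol, against 130.6, 77.4 and 144.5 CPM in DMSO. Here DMSO replicate 2 was the lowest library, and the log2 fold change was 1.66 ± 0.22 (SE, by edgeR, adjusted p = 7.24e-04), or 1.43 without that library. MCOLN1 (chr19:7522624-7534009) encodes TRPML1, the cation channel that releases calcium from lysosomes. It had 23.9, 23.1 and 23.1 CPM after beta-sitosterol and 14.2, 12.3 and 17.1 CPM in DMSO. The groups did not overlap, with a log2 fold change of 0.68 ± 0.15 (SE, by edgeR, adjusted p = 0.00738).

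The abundant structural glycoproteins of the membrane did not pass the test. LAMP1, used as a lysosome marker, had 234.8, 232.5 and 236.0 CPM after beta-sitosterol, within the DMSO range of 234.4, 222.8 and 272.3 CPM, and a log2 fold change of -0.05 ± 0.12 (SE). LAMP2, which also serves chaperone-mediated autophagy, had 59.7, 58.5 and 51.1 CPM after beta-sitosterol and 47.2, 47.7 and 34.4 CPM in DMSO. Its groups did not overlap, yet the log2 fold change of 0.39 did not pass (by edgeR, adjusted p = 0.0773). It passed without DMSO replicate 2 (0.46, by edgeR, adjusted p = 0.00798) and with DESeq2 (adjusted p = 0.0368). LAPTM4A (0.19), SCARB2, the receptor that carries glucocerebrosidase to the lysosome (0.01), and TMEM192 (-0.10) had overlapping groups. CLN3 had about 1 CPM, and its value belongs to an identifier whose exons share 92.7% of their bases with the CLN3 gene itself, so it is uncertain. CD68, a macrophage glycoprotein, had 1, 0 and 0 counts after beta-sitosterol and 1, 8 and 3 in DMSO and was not tested, and 85.8% of its exonic bases are shared with another annotated gene.

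Of the hydrolases and lumenal proteins, 9 of the 16 tested rose (56.2%) and none fell, a larger share of higher genes than in the membrane proteins or the V-ATPase. Of all tested genes, 19.0% were higher and 21.8% lower. Their median log2 fold change was 0.46. Their summed level was 1700, 1692 and 1740 CPM after beta-sitosterol, against 1021, 958.8 and 1185 CPM in DMSO. That is 1.62-fold on the means, with no overlap between groups. The number of higher genes depended on the libraries used, in this class and over all genes, where 2185 were higher with all libraries. Without beta-sitosterol replicate 1, 2 or 3 there were 5, 6 and 6 higher in the class, and 1510, 1501 and 1507 over all genes. Without DMSO replicate 1, 2 or 3 there were 6, 11 and 12 higher in the class, and 1781, 3091 and 2564 over all genes. Without DMSO replicate 2 there were 2 lower in the class and 3549 over all genes.

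PSAP (chr10:71816298-71851251), the precursor of the saposins that present sphingolipids to their hydrolases, was the most abundant of the class per unit of length in every library. Its level was 452.4, 444.3 and 459.0 CPM after beta-sitosterol, against 191.3, 133.7 and 212.2 CPM in DMSO. The lowest treated value was more than 2-fold the highest DMSO value, and the log2 fold change was 1.34 ± 0.17 (SE, by edgeR, adjusted p = 6.73e-04). GRN (chr17:44345302-44353106), the progranulin gene, whose product binds prosaposin and is split into granulins in the lysosome, had 312.6, 283.9 and 311.7 CPM after beta-sitosterol and 162.2, 130.5 and 234.3 CPM in DMSO. The DMSO libraries were the more scattered, and the log2 fold change was 0.79 ± 0.20 (SE, by edgeR, adjusted p = 0.0145). The GRN call was lost without beta-sitosterol replicate 1 or 3 or DMSO replicate 1, where edgeR gave adjusted p = 0.0558, 0.0534 and 0.0667.

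NEU1 (chr6:31857659-31862821), the lysosomal sialidase, had 52.4, 56.0 and 54.2 CPM after beta-sitosterol, against 24.1, 18.7 and 26.4 CPM in DMSO. The log2 fold change was 1.23 ± 0.15 (SE, by edgeR, adjusted p = 5.77e-04), and every treated value was about double the highest DMSO value. PPT1 (chr1:40071461-40097252), which removes palmitate from proteins, had 183.2, 203.6 and 197.7 CPM after beta-sitosterol, against 89.6, 98.5 and 89.2 CPM in DMSO. This was the smallest p of all 43 genes, at a log2 fold change of 1.08 ± 0.11 (SE, by edgeR, adjusted p = 3.06e-04), with all DMSO libraries close to each other. Of the exonic bases of PPT1, 23.4% lie under CAP1 on the other strand, and whether the counting used strand is not given in the sources used here.

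GAA (chr17:80101581-80119881), the enzyme that degrades glycogen in lysosomes, had 77.4, 70.6 and 81.5 CPM after beta-sitosterol, against 38.6, 31.1 and 49.1 CPM in DMSO. The groups did not overlap, and the log2 fold change was 0.95 ± 0.17 (SE, by edgeR, adjusted p = 0.00334). GLA (chrX:101397803-101407925), the alpha-galactosidase that acts on globotriaosylceramide, had 91.3, 96.2 and 93.3 CPM after beta-sitosterol, against 62.7, 46.3 and 61.9 CPM in DMSO. DMSO replicate 2 was the lowest library, and the log2 fold change was 0.72 ± 0.14 (SE, by edgeR, adjusted p = 0.00487).

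Smaller differences were called for HEXA, the alpha subunit of beta-hexosaminidase A (log2 fold change 0.56), ASAH1, acid ceramidase (0.49), and MAN2B1, the acid alpha-mannosidase (0.35), with adjusted p by edgeR of 0.0292, 0.0199 and 0.04 in that order. Each of these calls was lost when some library was left out. HEXA lost it when any of the 3 beta-sitosterol libraries was dropped, ASAH1 on dropping beta-sitosterol replicate 1 or 2 or DMSO replicate 1, and MAN2B1 on dropping any of the beta-sitosterol libraries, DMSO replicate 1 or the low-count filter. The deposited TPM values imply a length for ASAH1 of 10.4 times that of the median gene. Of the exonic bases of MAN2B1, 21.2% are shared with another annotated gene on the same strand.

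The other 7 tested hydrolases did not pass. GLB1, the beta-galactosidase, had 27.6, 31.4 and 31.2 CPM after beta-sitosterol and 39.4, 34.3 and 41.9 CPM in DMSO. All treated values lay below all DMSO values, with a log2 fold change of -0.36 (by edgeR, adjusted p = 0.0589), or -0.44 (0.00354) without DMSO replicate 2. NAGLU, an enzyme of heparan sulfate breakdown, had 19.4, 19.6 and 20.0 CPM after beta-sitosterol and 28.8, 13.2 and 38.9 CPM in DMSO, with overlapping groups. TPP1, a tripeptidyl peptidase, had 57.3, 62.0 and 56.8 CPM after beta-sitosterol and 45.8, 105.2 and 43.6 CPM in DMSO. In both, DMSO replicate 2 lay on the far side of the treated libraries from the other DMSO libraries. With it the log2 fold changes were -0.46 for NAGLU and -0.14 for TPP1 (by edgeR, adjusted p = 0.293 and 0.736), and without it they were -0.79 and 0.39 (by edgeR, adjusted p = 1.32e-04 and 0.00452).

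ARSA (log2 fold change 0.44), GALNS (0.25) and GUSB (0.16), a sulfatase of sulfatide, a sulfatase of keratan sulfate and beta-glucuronidase, had overlapping groups and passed without DMSO replicate 3 (0.78, 0.46 and 0.31, by edgeR, adjusted p = 0.0098, 0.0296 and 0.0407). IDS (0.16), which acts on heparan and dermatan sulfate, passed without DMSO replicate 2 (0.46, by edgeR, adjusted p = 0.00286). Its value belongs to an identifier whose exons share 76.0% of their bases with the IDS gene itself and is uncertain. SGSH, another heparan sulfate enzyme, had 3, 1 and 2 counts after beta-sitosterol and 4, 0 and 4 in DMSO and was not tested.

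In the V-ATPase, 6 of 16 genes rose and 1 fell (37.5% and 6.25%), against 19.0% higher and 21.8% lower of all tested genes. The median log2 fold change was 0.32, against -0.04 over all tested genes. Both directions were found in the V0 sector. The summed level of the 16 genes was 1257, 1273 and 1310 CPM after beta-sitosterol, against 856.2, 787.2 and 854.2 CPM in DMSO. Without DMSO replicate 2, 8 genes were higher and 1 lower, where 26.4% of all genes were higher and 30.3% lower. Per unit of length, ATP6V1F and ATP6V1G1 were the top pair in every library, at 326.7 to 354.2 TPM and 226.6 to 251.8 TPM after beta-sitosterol and 176.6 to 222.2 TPM and 203.0 to 212.3 TPM in DMSO.

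In the V0 sector, ATP6V0B (chr1:43974960-43978295), a proteolipid of the proton-carrying ring, had 311.0, 303.8 and 336.5 CPM after beta-sitosterol, against 119.5, 51.9 and 137.8 CPM in DMSO. The treated libraries were all more than 2-fold above the highest DMSO library, and DMSO replicate 2 was far below the rest. The log2 fold change was 1.62 ± 0.31 (SE, by edgeR, adjusted p = 0.00409), or 1.30 without DMSO replicate 2. ATP6V0D1 (chr16:67438019-67481157), the subunit that couples the ring to the central stalk, had 45.1, 47.4 and 46.3 CPM after beta-sitosterol, against 62.9, 67.8 and 70.7 CPM in DMSO. It was the only lysosomal gene of the 46 called lower with all libraries, falling by 0.54 on the log2 scale (SE 0.11, by edgeR, adjusted p = 0.00555), and it was called lower with each library left out in turn. ATP6V0A1, a membrane subunit lining the proton path, had a log2 fold change of 0.57 (by edgeR, adjusted p = 0.0193), which was lost without beta-sitosterol replicate 2 or 3 or DMSO replicate 1 (by edgeR, adjusted p = 0.0931, 0.0684 and 0.0612).

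Of the remaining V0 genes, ATP6V0A2, an alternative to ATP6V0A1, had a log2 fold change of 0.13 and ATP6V0E1 one of -0.10, with overlapping groups. ATP6V0C, the main proteolipid of the ring, was listed at 0.436 to 0.681 CPM after beta-sitosterol and 0.251 to 1.01 CPM in DMSO. The row shares 72.1% of its exonic bases with another annotated gene on the same strand, so these low values are uncertain.

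All 8 genes of the V1 sector had positive log2 fold changes, where 5469 of all 11525 tested genes did. Of the 8, 2 passed as higher (25%), against 19.0% of all tested genes. On the TPM scale ATP6V1A, ATP6V1C1 and ATP6V1H turned negative, as did ATP6V1G1 with a length trend removed. ATP6V1F (chr7:128862856-128865847), of the central rotor, had 118.2, 128.8 and 132.0 CPM after beta-sitosterol, against 55.9, 73.2 and 58.9 CPM in DMSO. The groups did not overlap, and the log2 fold change was 1.01 ± 0.14 (SE, by edgeR, adjusted p = 8.89e-04). With the length trend described below removed, ATP6V1F did not pass (0.58, by edgeR, adjusted p = 0.0553). Of the exonic bases of ATP6V1F, 23.7% are shared with other genes, mainly KCP on the other strand. ATP6V1E1 (chr22:17592136-17628822), of the peripheral stalks, had 120.5, 126.3 and 126.0 CPM after beta-sitosterol, against 73.3, 77.5 and 66.6 CPM in DMSO. The spread was small in both groups, and the log2 fold change was 0.78 ± 0.11 (SE, by edgeR, adjusted p = 0.00122).

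Of the ATP-binding subunits, ATP6V1A had a log2 fold change of 0.20 and ATP6V1B2 of 0.27, and neither passed. ATP6V1A passed without DMSO replicate 1 (0.43, by edgeR, adjusted p = 0.0452). ATP6V1G1, the stalk partner of the E subunit, had 94.3, 101.6 and 92.5 CPM after beta-sitosterol and 61.6, 92.1 and 61.7 CPM in DMSO. With DMSO replicate 2 close to the treated libraries, its log2 fold change was 0.42 (by edgeR, adjusted p = 0.0833), and it was 0.64 (4.05e-05) without that library. ATP6V1D, of the rotor, had 0.38 (by edgeR, adjusted p = 0.0632), and passed without DMSO replicate 2 (0.0366), with RLE size factors (0.0453) and with DESeq2 (0.0277). ATP6V1H (0.21) and ATP6V1C1 (0.09) had overlapping groups.

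Both accessory proteins rose. ATP6AP2 (chrX:40580970-40606848), also known as the prorenin receptor, had 47.0, 41.5 and 40.7 CPM after beta-sitosterol, against 29.7, 22.4 and 24.9 CPM in DMSO. The log2 fold change was 0.75 ± 0.14 (SE, by edgeR, adjusted p = 0.00429), with no overlap. ATP6AP1 (chrX:154428677-154436516), an assembly factor of V0, had 144.0, 145.3 and 161.0 CPM after beta-sitosterol, against 98.6, 98.7 and 110.8 CPM in DMSO. Its groups did not overlap either, and the log2 fold change was 0.55 ± 0.12 (SE, by edgeR, adjusted p = 0.00608).

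**Figure D3:**
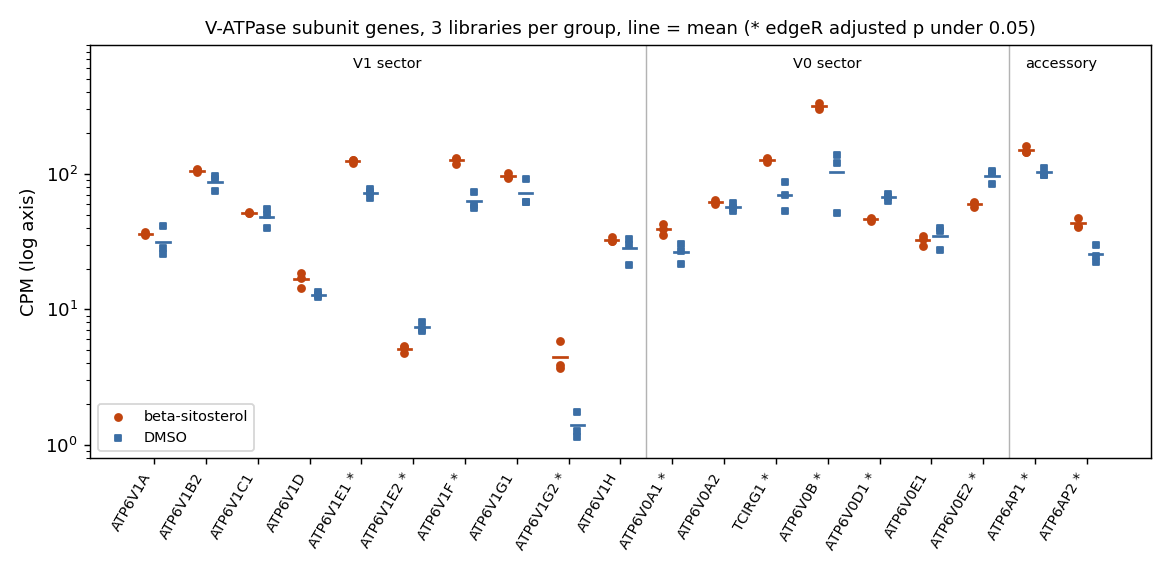
CPM on a log axis of V-ATPase subunit genes, with 4 paralogs outside the 46 genes (ATP6V1E2, ATP6V1G2, TCIRG1 and ATP6V0E2), in the beta-sitosterol libraries (circles) and DMSO libraries (squares), with a line at each mean. ATP6V0B and ATP6V1G2 lie higher after beta-sitosterol by 1.62 and 1.68 on the log2 scale, and ATP6V0D1, ATP6V0E2 and ATP6V1E2 lie lower.

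The spread between replicates was smaller after beta-sitosterol than in DMSO. The median SD of log2 CPM over the 43 genes was 0.06 in beta-sitosterol libraries and 0.24 in DMSO libraries, and over all tested genes it was 0.09 after beta-sitosterol and 0.27 in DMSO. Lysosomal genes shared this contrast with the rest of the transcriptome, and no test was made of it.

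Calls were also counted by the presence of the E-box core, with no test of the difference. Of the 10 tested lysosomal genes with CACGTG, 5 rose (CD63, ATP6V0B, NEU1, GAA and MCOLN1) and 1 fell (ATP6V0D1), with a median log2 fold change of 0.55. Of the 22 tested with an entry but without it, 11 rose and none fell, with a median of 0.36. Over all tested genes, 13.7% of the 948 with the hexamer were higher and 24.3% lower, and of the 8138 without it 18.5% were higher and 22.4% lower. LAPTM5, PPT1 and ATP6V1F were among the genes that rose without CACGTG in their windows. The 6 copies in LAMP1 stood beside a log2 fold change of -0.05.

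Fold changes moved with gene length in these libraries, and the calls were repeated with that trend removed. Length was taken from the ratio of the deposited counts to the deposited TPM and is given relative to the median gene. In 5 length bins of 2305 genes each, the median log2 fold change of all genes was 0.22 in the bin of the shortest and -0.26 in the bin of the longest, with Spearman's rho of -0.226 across 11525 genes, which share libraries and are not independent. Lysosomal genes had rho of -0.157, and their medians were 0.31, 0.43, 0.56, 0.16 and 0.52 from the shortest to the longest bin. In the longest bin 5 of 8 lysosomal genes rose (ASAH1, ATP6AP2, ATP6V0A1, HEXA and PPT1), where 10.1% of all genes did. With the trend removed, 18 of the 43 were higher and 1 lower, against 19.7% and 20.8% of all genes. The call that was lost was that of ATP6V1F, a very short gene, and the value of ATP6V1G1, of like length, became -0.01.

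**Figure D4:**
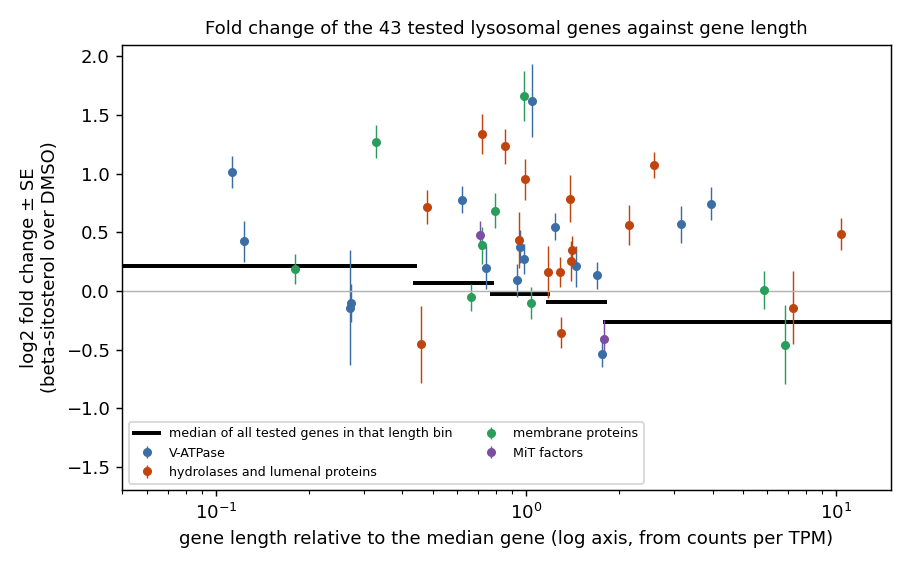
Log2 fold change ± SE (beta-sitosterol over DMSO) of the 43 tested lysosomal genes against gene length relative to the median gene (log axis), coloured by class, with black lines at the median of all tested genes in each of 5 length bins. The black lines step down from 0.22 to -0.26, while the lysosomal medians in the same bins run between 0.16 and 0.56.

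Other genes of the lysosome, listed by role, did not all follow. Of 30 tested hydrolases and activators outside the 46 genes, 8 rose and 3 fell (26.7% and 10%), with a median log2 fold change of 0.20. The background for this list and those below was 19.0% higher and 21.8% lower of all tested genes. DPP7, a dipeptidyl peptidase, had 42.5, 38.9 and 42.1 CPM after beta-sitosterol, against 9.48, 9.16 and 12.6 CPM in DMSO, and the largest change of that list, 1.99 ± 0.16 (SE, by edgeR, adjusted p = 1.31e-04). NPC2, which hands cholesterol to NPC1 inside the lysosome, rose by 0.92 on the log2 scale (by edgeR, adjusted p = 0.00101). HGSNAT, GM2A and ARSB fell by 0.87, 0.45 and 0.48 on the log2 scale (by edgeR, adjusted p = 0.0162, 0.0192 and 0.0454). HGSNAT lost its call without beta-sitosterol replicate 2 or 3, at 0.065 and 0.061, GM2A on dropping any of the beta-sitosterol libraries, at 0.0753 to 0.0982, and ARSB on dropping any library but DMSO replicate 2, at 0.0559 to 0.189. ARSB also lost it with RLE size factors, with either other filter, with a replicate block and with the length trend removed.

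Of 24 other membrane proteins tested, 6 rose and 1 fell (25% and 4.17%), with a median of 0.18. TMEM175, a lysosomal potassium and proton channel, rose by 0.76 on the log2 scale, PLD3, a nuclease of the phospholipase D family, by 0.58 and SLC38A9, the arginine sensor that signals to mTORC1, by 0.60 (by edgeR, adjusted p = 0.00321, 0.00698 and 0.00984). SLC38A9 did not pass without beta-sitosterol replicate 2 (0.0617). The nucleoside transporter SLC29A3 fell by 0.76 on the log2 scale (by edgeR, adjusted p = 0.0129), and did not pass without beta-sitosterol replicate 2 or 3 (0.0666 and 0.0623).

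Of 16 other V-ATPase subunits and assembly factors tested, 5 rose and 4 fell (31.2% and 25%). ATP6V1G2, ATP6V1G3 and ROGDI rose by 1.68, 2.36 and 0.95 on the log2 scale (by edgeR, adjusted p = 0.00185, 0.00406 and 0.00425), although ATP6V1G3 rested on 17, 11 and 16 counts after beta-sitosterol and 3, 2 and 5 in DMSO. WDR7, DMXL1 and ATP6V0E2 fell by 1.23, 0.68 and 0.69 on the log2 scale (by edgeR, adjusted p = 0.00108, 0.00933 and 0.00331). The assembly factors thus did not share a direction: ROGDI rose, WDR7 and DMXL1 fell, and DMXL2 had -0.002 (by edgeR, adjusted p = 0.995). DMXL1 did not pass without beta-sitosterol replicate 3 (0.0528) or with the length trend removed (0.0505). Other annotated genes share 38.3% of the exonic bases of ROGDI, on the same strand, and 23.1% of those of ATP6V1G2.

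Of 19 genes listed for control of the MiT factors at the lysosomal surface, 5 rose and 5 fell (26.3% each way), with a median of 0.19. The list also holds TFEC, itself a MiT factor, which reached at most 1.13 CPM in any library. TFEC was not called (log2 fold change -0.32, by edgeR, adjusted p = 0.717). RPTOR, the scaffold through which mTORC1 recognises its substrates, had 34.2, 30.3 and 32.5 CPM after beta-sitosterol, against 85.8, 85.5 and 105.2 CPM in DMSO, a log2 fold change of -1.51 ± 0.13 (SE, by edgeR, adjusted p = 1.69e-04). MTOR, the kinase itself, fell by 0.60 on the log2 scale, and LAMTOR1, the anchor of the Ragulator complex, by 0.37 (by edgeR, adjusted p = 0.00253 and 0.0365). LAMTOR1 did not pass on dropping any of the beta-sitosterol libraries or DMSO replicate 3 (0.0779 to 0.149), with RLE size factors (0.0584), with no low-count filter (0.0842) or with a replicate block (0.0516). RRAGD and RRAGB, Rag GTPases that bring mTORC1 and MiT factors to the lysosome, rose by 0.76 and 0.96 on the log2 scale, and LAMTOR2 by 0.81 (by edgeR, adjusted p = 0.00587, 0.00667 and 0.00786).

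Of 12 tested genes of mannose 6-phosphate tagging and of wider sorting to lysosomes, none rose and 4 fell, with a median log2 fold change of -0.27. The wider part of the list holds SORT1, AP3B1 and AP3D1. The 4 genes are 33.3% of the list, where 21.8% of all tested genes were lower. GGA3, a coat adaptor for the receptors, fell by 0.72 on the log2 scale, IGF2R, the large mannose 6-phosphate receptor, by 0.59 and AP3D1, an adaptor subunit for traffic to lysosomes, by 0.60 (by edgeR, adjusted p = 0.00201, 0.00358 and 0.00502). With the length trend removed, AP3D1 was at the threshold (0.05). The summed level of the list was 1516, 1521 and 1571 CPM after beta-sitosterol and 1921, 1858 and 1978 CPM in DMSO, with no overlap, while the enzymes among the 46 genes summed higher. Over all these other lists, 24 of 101 genes rose and 17 fell (23.8% and 16.8%), against 19.0% and 21.8% of all tested genes. These lists too were chosen with earlier results of these data known.

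**Figure D5:**
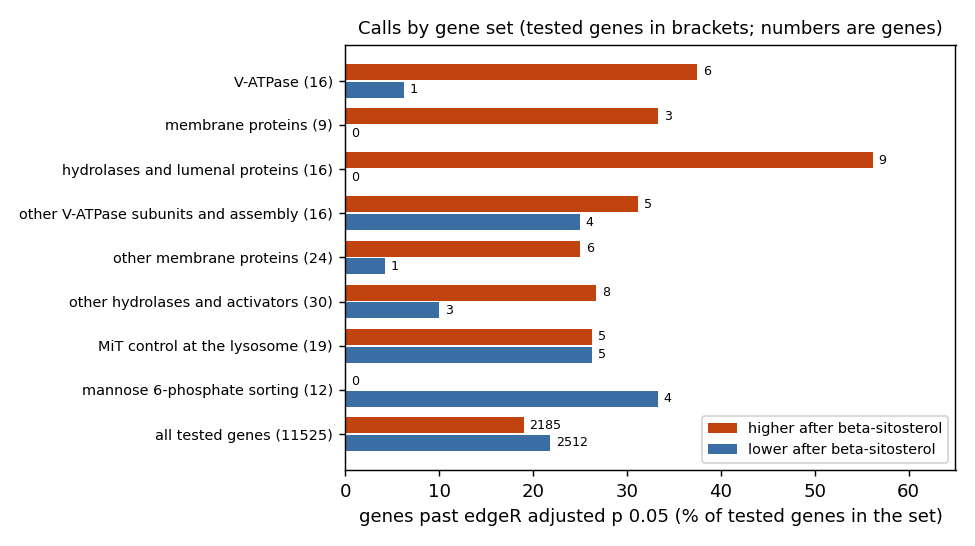
Share of tested genes called higher (upper bar) and lower (lower bar) after beta-sitosterol in each set, in percent, with the number of genes beside each bar and tested genes in brackets. Hydrolases and lumenal proteins have 9 higher and none lower. The set labelled mannose 6-phosphate sorting, which also holds SORT1, AP3B1 and AP3D1, has none higher and 4 lower. All tested genes have 19.0% higher and 21.8% lower.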

How the data were processed

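The authors deposited 2 tables for 6 libraries: unnormalized read counts by gene, and TPM values that they had scaled for length and library. Tools credited in the submitters' processing notes are StringTie 2.2.1, featureCounts 2.0.1, STAR 2.7.10 and fastp 0.23.2, with build GRCh38. Strand use, gene annotation and treatment of multi-mapped reads were not stated. The 46 genes and the other lists were chosen with earlier results of these data known.

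Of 65807 rows, 61 with a repeated symbol were dropped (1691 counts). Counts were tested with edgeR 4.0.16 in R 4.3.3 (filterByExpr, TMM factors, quasi-likelihood test, Benjamini-Hochberg adjustment over 11525 genes, threshold 0.05), treatment being the only term. The fit was tested on simulated data. CPM values were scaled by the TMM-adjusted library sizes. Libraries held 26453281 to 35565620 counts. Per-sample values were given for the MiT factors, for called genes of rank 1 to 6 by p in each class, for called genes of the rarer direction, and by one value for the rest; values added for LAMP1, LAMP2, GLB1, NAGLU, TPP1 and ATP6V1G1 were chosen after they were seen. Of the other lists the called genes with the 3 smallest p-values in each direction were named, except for a gene that is not reported here. Alternatives were RLE factors, library totals, other filters, DESeq2 1.42.0, limma 3.58.1 on counts and on log2(TPM + 1) or log2(TPM + 0.1) of the deposited TPM, a replicate block, removal of a length trend (lowess, span 0.3), and leaving out each library. Promoters were read from RefSeq, GRCh38.p14, and exon overlaps from GENCODE 29.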

Additional observations from a re-analysis of the deposited data

How the results depend on the processing

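The main counts of 19 higher and 1 lower lysosomal genes stayed within 1.5 times under RLE factors, library totals, other filters, DESeq2 and limma-voom, and the same 19 genes stayed higher in all of these but the analysis without a filter, which kept 18. With limma-trend on TPM values, 4 lysosomal genes were higher at either pseudocount, 1 in the V-ATPase and 1 among hydrolases, and of all genes 713 (pseudocount 1) or 691 (pseudocount 0.1). With the length trend removed and DMSO replicate 2 left out, 5 lysosomal genes were lower, 2 in the V-ATPase and 2 among hydrolases. Of all 11724 genes tested in that setting, 3306 were lower. Leaving out 1 library at a time gave 14 to 24 higher and 1 to 4 lower lysosomal genes, 5 to 8 higher and 1 lower in the V-ATPase, 3 to 4 higher and 0 lower membrane proteins, 5 to 12 higher and 0 to 2 lower hydrolases, and 1501 to 3091 higher and 1593 to 3549 lower genes in all. The causes of these shifts were not tested.

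The labels do not say whether equal replicate numbers share an experiment, and the main fit did not pair them. The deviations of same-numbered libraries correlated at 0.04, 0.10 and 0.15, and those of other pairs at -0.14 to 0.02. Each library thus correlated best with its own number, at low values, and whether the groups are paired remains unknown. A fit with the replicate number as a block gave 20 higher and 1 lower lysosomal genes, 7 and 1 in the V-ATPase, 4 and 0 membrane proteins, 8 and 0 hydrolases, and 2306 and 2437 of all genes. LAMP2 and ATP6V1G1 passed under the block, and MAN2B1, ARSB and LAMTOR1 did not (by edgeR, adjusted p = 0.0628, 0.0523 and 0.0516).

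Every log2 fold change of the 46 genes that turned sign belonged to a gene not called with all libraries. With TPM at pseudocount 1 these were LAPTM4A (-0.0624), SCARB2 (-0.12), GUSB (-0.089), GALNS (-0.006), IDS (-0.0422), ATP6V0A2 (-0.12), ATP6V1A (-0.0309), ATP6V1C1 (-0.14) and ATP6V1H (-0.0327). At pseudocount 0.1 they were LAPTM4A (-0.0631), SCARB2 (-0.22), GUSB (-0.0893), IDS (-0.0456), ATP6V0A2 (-0.12), ATP6V1A (-0.0267), ATP6V1C1 (-0.15) and ATP6V1H (-0.0236). Removing the length trend turned LAPTM4A (-0.13), TPP1 (0.35) and ATP6V1G1 (-0.01), and with DMSO replicate 2 also left out TMEM192 (0.0073), CLN3 (0.13) and TPP1 (0.73). Limma-voom turned ATP6V0C (0.0445). Over the libraries left out in turn, SCARB2 ranged from -0.0694 to 0.11, LAMP1 from -0.12 to 0.0757, TPP1 from -0.35 to 0.39, ATP6V0C from -0.51 to 0.48 and ATP6V0E1 from -0.25 to 0.0376. Dropping the 4 lysosomal genes with over 50% of their exonic bases shared, an alternative added after seeing the data, left 19 higher and 1 lower of 40. At 3 libraries per group, changes as small as those of the ATP-binding subunits may go uncalled.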

Other observations

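Ratios between paralogous subunits of the V-ATPase, and between TFE3 and TFEB, were taken within each library. These 6 pairs were picked after their values had been seen, so the values are given as a description. The log2 ratio of TFE3 to TFEB averaged -1.93 ± 0.06 after beta-sitosterol and -2.79 ± 0.29 in DMSO (SD, n = 3 each), a difference of 0.86. That of ATP6V1G2 to ATP6V1G1 was -4.46 ± 0.41 after beta-sitosterol and -5.69 ± 0.08 in DMSO, a difference of 1.23. TCIRG1, an alternative membrane subunit known from osteoclasts and lymphocytes, gained 0.75 relative to ATP6V0A2, and ATP6V0A1 gained 0.44. In the other direction, ATP6V1E2 fell by 1.30 relative to ATP6V1E1 and ATP6V0E2 fell by 0.60 relative to ATP6V0E1. In each of the 6 pairs the groups did not overlap, and the exact two-sided permutation p was 0.1, the smallest that 3 against 3 libraries allow, and 0.1 adjusted over the 6 pairs. A ratio alone does not show which partner changed. In the tests of single genes, ATP6V1E1 rose by 0.78 and ATP6V1E2 fell by 0.52 on the log2 scale (by edgeR, adjusted p = 0.00122 and 0.0271). TCIRG1 rose by 0.86 (by edgeR, adjusted p = 0.00538). TFE3, ATP6V1G2, ATP6V0A1 and ATP6V0E2 were also called, while TFEB, ATP6V1G1, ATP6V0A2 and ATP6V0E1 were not.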
